A study of Mus musculus with 12 samples.

Results

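The neurotrophins and their receptors were examined as 7 genes of the 21186 gene names on the array, namely the ligands Bdnf, Ntf3 and Ntf5, the Trk receptors Ntrk2 and Ntrk3, the p75 receptor Ngfr and the co-receptor Sort1. Members were taken by gene name, and every probe named for one of them was kept, which gave 15 probes of the 34891 probes with a gene name. RNA had been taken from the entire hippocampus and from the cerebellum of 3 WT and 3 En2-/- littermates, labelled with Cy3 and hybridised to 12 one-colour arrays, 1 for each mouse and tissue. En2 encodes engrailed-2, a homeobox transcription factor of the midbrain and hindbrain, and the En2-/- mice lack its homeobox in every cell. All mice were adults of 3 to 5 months from heterozygous matings, and both sexes were used. The line descended from mutants on a mixed 129Sv x C57BL/6 and outbred background and had been backcrossed to C57BL/6 for at least 5 crosses, in WT and En2-/- littermates alike. In the labels the 4 groups are called Cerebellum En2WT, Cerebellum En2KO, Hippocampus En2WT and Hippocampus En2KO.

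Neurotrophins are secreted as precursors and are cut to mature dimers. BDNF and NT-4 (the product of Ntf5) bind TrkB, which is encoded by Ntrk2, and NT-3 (Ntf3) binds TrkC, which is encoded by Ntrk3. The p75 receptor binds all neurotrophins, and together with sortilin (Sort1) it binds the uncut precursors. In the adult hippocampus BDNF is made by excitatory neurons and takes part in synaptic plasticity, and in the cerebellum BDNF and NT-3 support granule and Purkinje neurons. Both Trk genes give full-length receptors with a kinase domain and truncated receptors without it.

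The probes are DNA oligonucleotides of 60 bases, and each reads a short stretch of mRNA. The ligand probes for Bdnf and Ntf3, shown because the largest regional differences among the ligands were read with them, lie in the coding sequence of the mature protein. The Bdnf probe A_51_P261991 lies at mm9 chr2:109564203-109564262 on the plus strand, and the Ntf3 probe A_52_P525161 at chr6:126051915-126051974 on the minus strand.
Bdnf A_51_P261991: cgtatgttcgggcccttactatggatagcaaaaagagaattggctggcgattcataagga
Ntf3 A_52_P525161: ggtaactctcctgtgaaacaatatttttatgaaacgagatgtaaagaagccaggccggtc

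The Ntrk3 probe A_52_P55706 is shown because it carried the single genotype call among the members. It lies at mm9 chr7:85595783-85595842 on the minus strand, in the coding sequence at the membrane-spanning part of TrkC, and the files list it for 2 transcript variants. The capitals mark 23 of the 24 bases of the reverse primer used by the study to measure Ntrk3 by quantitative PCR, which runs on the opposite strand.
Ntrk3 A_52_P55706: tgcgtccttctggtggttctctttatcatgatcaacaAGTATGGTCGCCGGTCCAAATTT
The other Ntrk3 probe, A_52_P500274, lies 149875 bp further along the gene in the direction of transcription, at chr7:85445908-85445967, and is listed for variant 2 alone.

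Of the 3 Ntrk2 probes, A_51_P393454 (chr13:59230936-59230995) is listed for variant 1, which encodes full-length TrkB, and A_51_P516012 (chr13:59033682-59033741) for variant 2, which encodes the truncated receptor. The third, A_51_P516006, starts 60 bp after the start of A_51_P516012 and is named for a cDNA clone, so these probes next to each other read one exon region, 197194 bp before the probe for the full-length receptor. There were 4 Sort1 probes and 2 Ngfr probes. One of each is shown because it reads coding sequence by the membrane-spanning segment, while the others of these genes lie nearer the 3′ end. Sort1 A_51_P517145 covers 2049 bp of genome from chr3:108157150 to 108159198 and therefore crosses a splice junction. Ngfr A_51_P384968 lies at chr11:95435537-95435596 on the minus strand.
Sort1 A_51_P517145: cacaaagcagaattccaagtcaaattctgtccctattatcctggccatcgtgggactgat
Ngfr A_51_P384968: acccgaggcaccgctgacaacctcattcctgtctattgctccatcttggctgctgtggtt

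Between 62.3% and 73.0% of the spots on each array were well above background, and no spot was saturated. Of the member probes, 14 were well above background on all 12 arrays. The exception was Ngfr A_51_P384968, which was well above background on 5 of 6 cerebellum and 4 of 6 hippocampus arrays and was not tested for genotype in the hippocampus. The labelled tissues carried their markers: Gabra6, a GABA receptor subunit of cerebellar granule cells, ranged from 14.7 to 15.0 in the cerebellum and was well above background on 1 of 6 hippocampus arrays, and Neurod6, a factor of excitatory forebrain neurons, ranged from 12.5 to 13.4 on hippocampus arrays and from 7.05 to 7.95 on cerebellum arrays (log2 intensity). The En2 probe gave 14.2 ± 0.41 in WT and 14.5 ± 0.37 in En2-/- cerebellum (SD, n = 3 each), and per the study it lies in a part of the gene that the En2-/- locus keeps, so it does not check the genotype labels. Each of the 3 slides held 1 array of every group, at the same position for a given group on each slide. Array position therefore cannot be told apart from group, nor the revision of the array annotation from region. In these bulk tissues, fewer cells of a type and less RNA per cell cannot be told apart.

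Between the regions, all ligands were higher in the hippocampus, the Ngfr probe with a strong signal was higher in the cerebellum, and the Trk and Sort1 probes differed among themselves. Of the 15 member probes, limma called 10 between the regions, 3 higher and 7 lower in the cerebellum (adjusted p under 0.05, mean of both genotypes). Of all 25481 probes tested it called 38.6%, with 20.1% higher and 18.5% lower. In WT mice alone 9 of the 15 were called, beside 27.8% of all probes, and in En2-/- mice alone 6 of the 15, beside 24.3%. The cerebellum and hippocampus arrays did not overlap for 9 of the 15, against 19.8% of all probes tested. The median difference was 0.03 over the member probes and 0.02 over all probes (log2, cerebellum minus hippocampus).

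Bdnf, read in its coding sequence by A_51_P261991, had log2 levels of 11.68, 11.66 and 11.78 in WT hippocampus, 11.53, 11.55 and 11.54 in En2-/- hippocampus, 9.54, 9.45 and 9.59 in WT cerebellum and 9.82, 9.76 and 9.80 in En2-/- cerebellum. Every hippocampus array lay above every cerebellum array. The hippocampal level was 3.90-fold the cerebellar one (log2 difference -1.96, SE 0.10, limma adjusted p = 3.14e-08), and the difference within each slide was -1.93, -1.998 and -1.97. Each array carries this probe in 10 spots, whose SD within an array was between 0.04 and 0.10 (log2). The other Bdnf probe, A_52_P384100, starts 2267 bp further downstream and lay between 10.11 and 10.72 in the hippocampus and between 8.54 and 9.38 in the cerebellum. It gave a difference of -1.57 (SE 0.17, adjusted p = 1.80e-05), in the same direction on each slide.

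Ntf3, whose product NT-3 is the ligand of TrkC, had levels of 9.22, 9.10 and 8.12 in WT hippocampus and 8.53, 8.70 and 8.52 in En2-/- hippocampus. In the cerebellum the levels were 6.79, 6.20 and 7.36 in WT and 6.21, 7.33 and 5.91 in En2-/-. The regions did not overlap, although the WT hippocampus arrays and the cerebellum arrays of either genotype each spread over more than 1 log2 unit. The hippocampal level was 4.18-fold the cerebellar one (log2 difference -2.06, SE 0.29, adjusted p = 0.000121).

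Ntf5, which encodes NT-4, had levels of 6.42, 6.13 and 6.15 in WT and 6.89, 5.07 and 6.06 in En2-/- hippocampus, and 4.43, 3.92 and 4.49 in WT and 4.69, 4.61 and 4.24 in En2-/- cerebellum. The array of En2-/- hippocampus replicate 2 was the lowest of its region, yet it stayed above all 6 cerebellum arrays. The difference was -1.72 (SE 0.26, adjusted p = 0.000228), 3.30-fold higher in the hippocampus, and it shrank to -0.67 (adjusted p = 0.00232) with normexp background correction. All 4 ligand probes were called in the same direction within WT mice alone and within En2-/- mice alone. The order of the groups was hippocampus above cerebellum for each ligand, and no neighbouring pair within a region differed at limma's threshold.

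**Figure D1:**
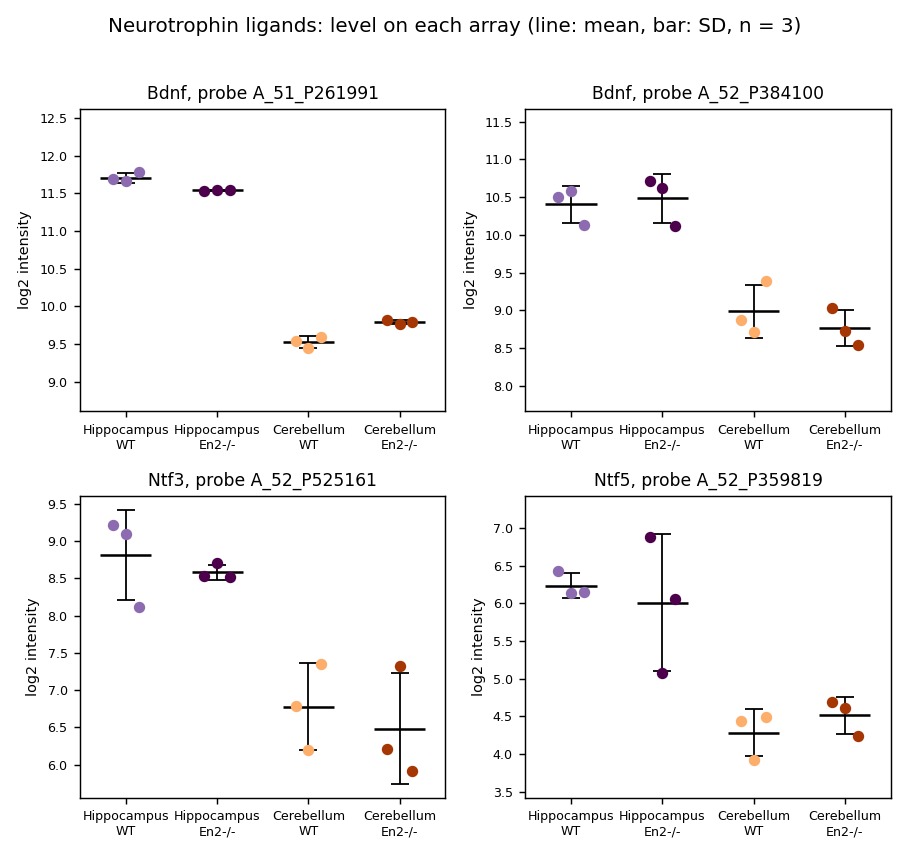
Level of each ligand probe (y axis, log2 intensity after quantile normalization, each panel on its own scale) in the 4 groups (x axis). Points are single arrays, lines are group means and bars are SD (n = 3); every hippocampus point of Bdnf, Ntf3 and Ntf5 lies above every cerebellum point of the same probe.

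Ngfr, the p75 receptor gene, went the other way. Probe A_52_P236448, also carried in 10 spots, gave 8.35, 8.35 and 8.09 in WT hippocampus, 9.08, 7.68 and 8.45 in En2-/- hippocampus, 10.36, 10.05 and 9.74 in WT cerebellum and 10.68, 10.34 and 10.55 in En2-/- cerebellum. The cerebellum arrays all lay above the hippocampus arrays, a 3.87-fold difference (log2 1.95, SE 0.21, adjusted p = 1.81e-05), with 1.80, 2.18 and 1.88 within the slides. The dim Ngfr probe A_51_P384968 lay between 3.68 and 5.29 over all 12 arrays, its groups overlapped, and its difference was 0.04 (SE 0.26, adjusted p = 0.913). Markers of cholinergic neurons, cells known to carry p75, moved with region as a list, but not every gene did. The list's summed level, as the mean over 4 genes, was 3.44 to 4.16 in the hippocampus and 5.47 to 7.17 in the cerebellum. The 3 genes tested (Slc5a7, Slc18a3 and Isl1) were all higher in the cerebellum over both genotypes. In En2-/- mice alone 2 of the 3 were called. Chat was not tested, and its probe A_52_P608523 overlapped, at 3.89 to 4.95 in the cerebellum and 3.60 to 4.52 in the hippocampus. That probe was well above background on 4 of 6 cerebellum arrays and 1 of 6 hippocampus arrays. The part of these markers in the Ngfr difference was not tested.

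Sort1, which encodes sortilin, was read by 4 probes that did not move together. The probe nearest the 3′ end, A_52_P590396, gave 13.88, 14.42 and 14.41 in WT and 14.38, 14.09 and 14.12 in En2-/- hippocampus, against 12.47, 12.75 and 13.29 in WT and 12.87, 13.09 and 12.95 in En2-/- cerebellum. It was 2.49-fold higher in the hippocampus (log2 difference -1.31, SE 0.17, adjusted p = 5.66e-05). A pair of probes next to each other, starting 3506 bp or more before it, differed the opposite way: A_52_P568257 was higher in the cerebellum by 0.57 (SE 0.12, adjusted p = 0.00310) and A_51_P423456 by 0.42 (SE 0.13, adjusted p = 0.0204). The second of these calls ended without the array of En2-/- hippocampus replicate 2 (adjusted p = 0.0506). The splice-spanning probe A_51_P517145, nearest the 5′ end, showed overlapping regions, 7.41 to 9.10 for cerebellum arrays and 8.02 to 8.79 for hippocampus arrays, and a difference of 0.09 with a 95% interval from -0.48 to 0.65 (adjusted p = 0.820).

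The difference between A_52_P590396 and A_52_P568257 on the same array averaged 1.57 ± 0.33 for cerebellum and 3.45 ± 0.19 for hippocampus (log2, SD, n = 6 each). The arrays of the regions did not overlap, and the exact two-sided permutation test gave the smallest p that 6 against 6 arrays can give, 0.00216 (adjusted p = 0.00866 over the 12 pairs of probes of a member gene). That test and limma's main fit between regions treated the arrays as independent, although each mouse gave both tissues and arrays share slides. The direction for Sort1 therefore depended on the probe: the one nearest the 3′ end was higher in the hippocampus, and the adjacent pair was higher in the cerebellum.

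**Figure D2:**
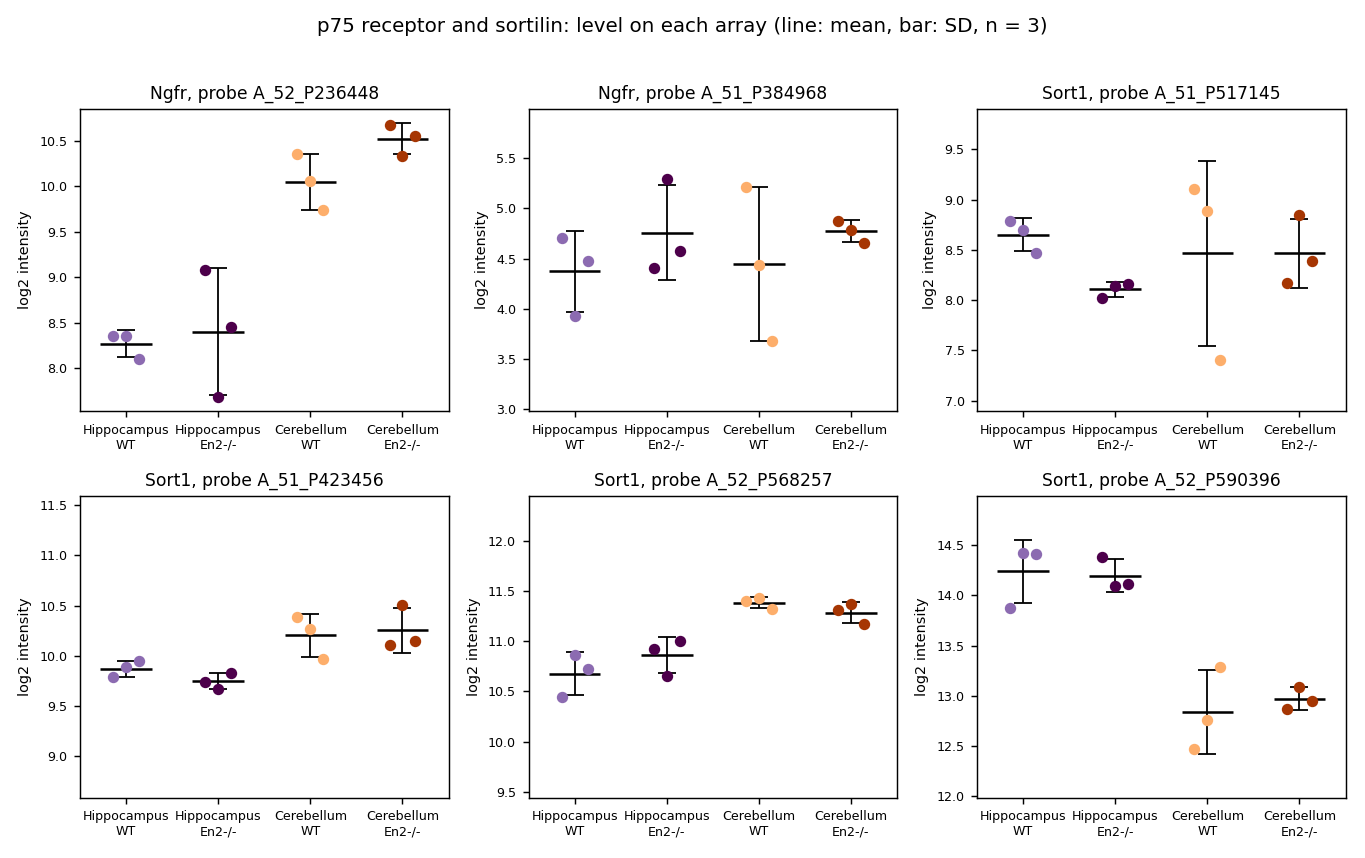
Level of each Ngfr and Sort1 probe (y axis, log2 intensity, each panel on its own scale) in the 4 groups (x axis). Points are arrays, lines are means and bars are SD (n = 3); Ngfr A_52_P236448 is higher in the cerebellum while A_51_P384968 overlaps, and Sort1 A_52_P590396 is higher in the hippocampus while A_51_P423456 and A_52_P568257 are higher in the cerebellum.

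The Trk receptor probes differed less between the regions than the ligands. Full-length Ntrk2 (A_51_P393454) had levels of 12.24, 12.07 and 12.49 in WT hippocampus, 11.502, 11.68 and 11.43 in En2-/- hippocampus, 11.48, 11.67 and 11.14 in WT cerebellum and 11.78, 11.42 and 11.63 in En2-/- cerebellum. The WT hippocampus arrays stood above all 9 other arrays, and the remaining groups overlapped. Averaged over genotypes the difference was -0.38 (SE 0.14, adjusted p = 0.0457), and with the slide as a block the call ended (adjusted p = 0.0653). It also ended without any 1 of 9 of the 12 arrays (highest adjusted p = 0.105). In WT mice alone it was -0.84 (SE 0.20, adjusted p = 0.00723) and in En2-/- mice 0.07 (SE 0.20, adjusted p = 0.831). These contrasts differ by the same amount as the genotype effects do between the regions, which is tested further on.

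Both probes for the truncated Ntrk2 region overlapped between the regions. A_51_P516012 lay between 13.30 and 13.79 in the hippocampus and between 13.12 and 13.997 in the cerebellum, a difference of 0.12 with a 95% interval from -0.21 to 0.45 (adjusted p = 0.556). Its neighbour A_51_P516006 differed by 0.18, with an interval from -0.08 to 0.44 (adjusted p = 0.271).

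For Ntrk3 the variant 2 probe A_52_P500274 gave 12.59, 12.78 and 12.39 in WT and 12.20, 12.36 and 12.37 in En2-/- hippocampus, and 11.93, 11.88 and 12.14 in WT and 11.61, 12.02 and 11.82 in En2-/- cerebellum. Every hippocampus array lay above every cerebellum array, with a difference of -0.55 (SE 0.13, adjusted p = 0.00471), 1.46-fold. The probe for both variants, A_52_P55706, did not share that order. Its difference was 0.03 with a 95% interval from -0.35 to 0.42 (adjusted p = 0.897), the mean of -0.44 in WT mice (adjusted p = 0.225) and 0.50 in En2-/- mice (adjusted p = 0.172).

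**Figure D3:**
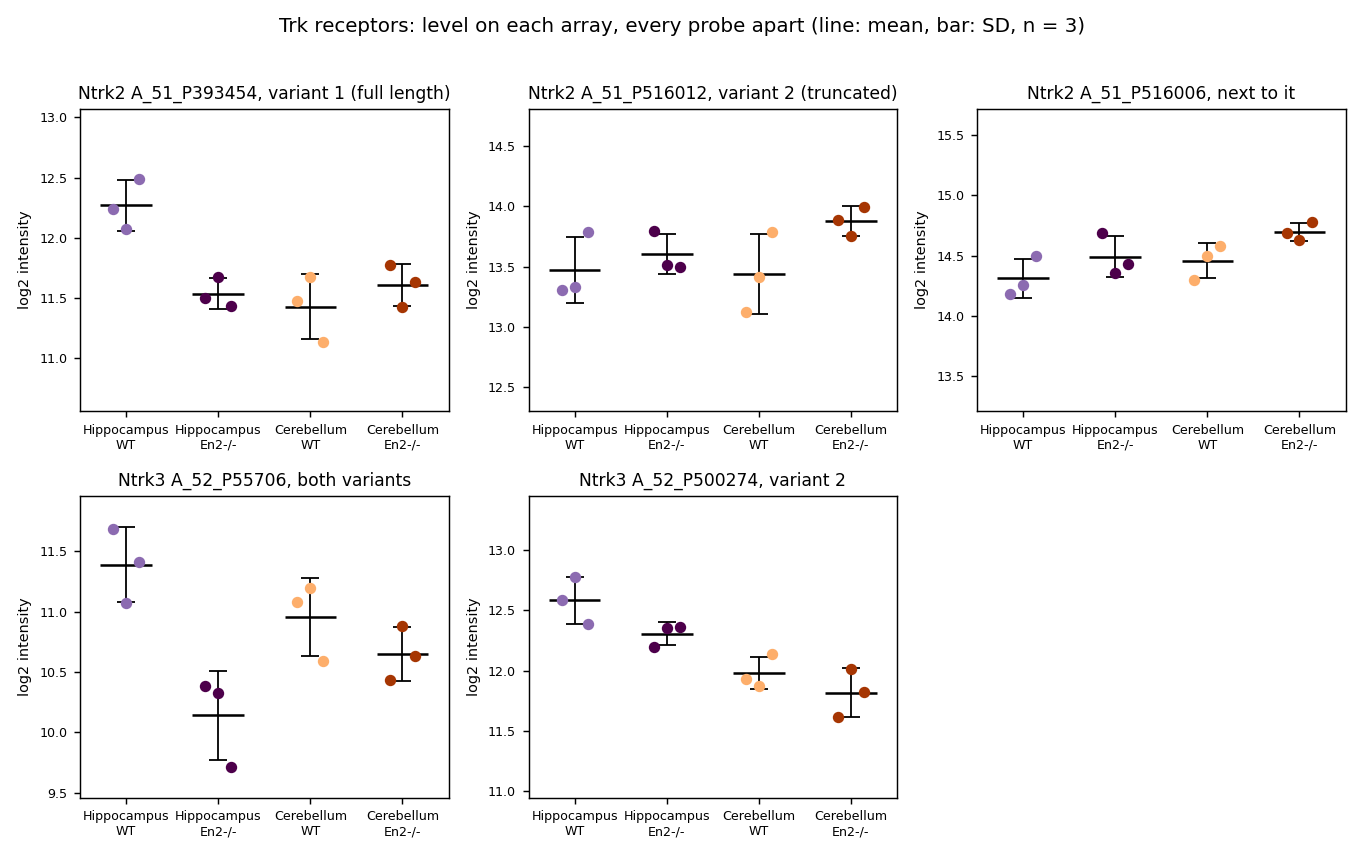
Level of every Ntrk2 and Ntrk3 probe (y axis, log2 intensity, each panel on its own scale of equal span) in the 4 groups (x axis). Points are arrays, lines are means and bars are SD (n = 3); Ntrk2 A_51_P393454 and Ntrk3 A_52_P55706 are lower in En2-/- than in WT hippocampus without overlap, and the truncated Ntrk2 probes A_51_P516012 and A_51_P516006 overlap there.

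In the hippocampus, the question was whether En2-/- and WT littermates differed in these genes. A single member probe of the 14 tested, Ntrk3 A_52_P55706, passed limma's threshold, lower in En2-/-, where 2.13% of all 23774 probes tested passed and 1.27% were lower. The rank product method, which ranks the 9 ratios of En2-/- over WT arrays and is the test named in the study's methods, called the same single probe, where it called 4.28% of all probes (P under 0.005). The genotypes did not overlap for 5 of the 14 member probes, where they did not for 27.8% of all probes. The median difference was -0.15 over the member probes and 0.01 over all probes.

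The TrkC gene Ntrk3, read by A_52_P55706, had levels of 11.69, 11.07 and 11.41 in WT and 10.38, 10.33 and 9.72 in En2-/- hippocampus. Every En2-/- array lay below every WT array, and En2-/- replicate 3 was the lowest. The level in En2-/- was 0.421 of that in WT (log2 difference -1.25, SE 0.25, limma adjusted p = 0.04998, rank product permutation P = 0.00135), with -1.30, -0.75 and -1.70 within the slides. The limma value is at the threshold: with the slide as a block the adjusted p was 0.107, and leaving out any 1 of the 6 arrays ended the call, with adjusted p from 0.0628 to 0.175 and differences from -1.41 to -1.04. The rank product call ended without WT replicate 1 or without En2-/- replicate 3. The variant 2 probe A_52_P500274 also had all En2-/- arrays below all WT arrays, with a difference of -0.28 (SE 0.18) and a 95% interval from -0.69 to 0.13 (adjusted p = 0.397).

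Full-length Ntrk2 (A_51_P393454) had no overlap between genotypes either, at 12.24, 12.07 and 12.49 in WT against 11.502, 11.68 and 11.43 in En2-/- hippocampus. Its difference was -0.73 (SE 0.18, 95% interval -1.15 to -0.31), with -0.74, -0.39 and -1.06 within the slides, and it passed neither limma's threshold (adjusted p = 0.0894, 0.0615 to 0.291 over 15 alternatives) nor that of the rank product (permutation P = 0.0348). The truncated Ntrk2 probes gave 0.13 (SE 0.20, adjusted p = 0.746) and 0.18 (SE 0.18, adjusted p = 0.597), with overlapping genotypes.

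On the same arrays, the full-length minus the truncated Ntrk2 probe A_51_P516012 was -1.20 ± 0.12 in WT and -2.06 ± 0.23 in En2-/- hippocampus (log2, SD, n = 3 each), and the Ntrk3 variant 2 probe minus A_52_P55706 was 1.19 ± 0.44 in WT and 2.16 ± 0.43 in En2-/-. The genotypes did not overlap for either pair. With 3 against 3 arrays the exact permutation test cannot go below p = 0.10, which is what it gave for both (adjusted p = 0.171 over 12 pairs), so it could not call them. The separation was not particular to the Trk genes: 7 of the 12 pairs did not overlap between genotypes in the hippocampus, all with the same adjusted p. Of these, 4 were Sort1 pairs, such as A_52_P568257 minus A_51_P517145, at 2.02 ± 0.32 in WT and 2.75 ± 0.20 in En2-/-. Pairs of a gene share probes and are not independent, and the share over all such pairs on the array was not computed.

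**Figure D4:**
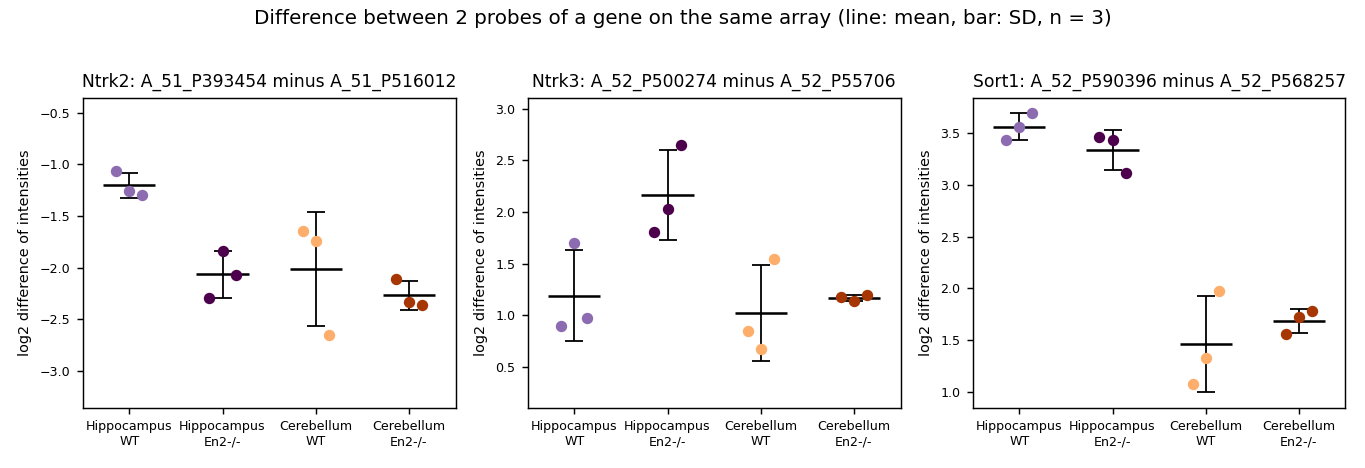
Difference between a pair of probes of one gene on the same array (y axis, log2) in the 4 groups (x axis), for Ntrk2, Ntrk3 and Sort1. Points are arrays, lines are means and bars are SD (n = 3); the Ntrk2 and Ntrk3 differences separate WT from En2-/- in the hippocampus, and the Sort1 difference separates the regions.

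The other members were not called in the hippocampus. Sort1 A_51_P517145 had levels of 8.79, 8.69 and 8.47 in WT and 8.02, 8.14 and 8.16 in En2-/-, without overlap, and a difference of -0.55 (SE 0.17, adjusted p = 0.135), while the 3 Sort1 probes nearer the 3′ end gave -0.12, 0.18 and -0.04. Bdnf A_51_P261991 was lower in each En2-/- array than in any WT array, by 0.17 on average (difference -0.17, SE 0.15, adjusted p = 0.562), and Bdnf A_52_P384100 gave 0.08 (adjusted p = 0.864). The intervals for Ntf3 (-0.91 to 0.45), Ntf5 (-1.17 to 0.71) and Ngfr A_52_P236448 (-0.63 to 0.90) left room for changes of either sign.

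Some marker lists moved with genotype in the hippocampus, and other marker lists overlapped or were almost level. The mean over 8 thalamus marker genes lay between 9.31 and 9.92 on the WT arrays and between 10.3 and 11.04 on the En2-/- arrays, without overlap. Of these, 2 genes passed limma's threshold, Rgs16 (difference 1.21, adjusted p = 0.0361) and Ramp3 (1.58, adjusted p = 0.0363), and the defining marker Tcf7l2 had means of 10.09 in WT and 11.48 in En2-/-. Choroid plexus markers, as the mean over 9 genes, ranged from 10.4 to 11.8 in WT and from 8.38 to 12.4 in En2-/-, with none called. Purkinje cell markers, as the mean over 6 genes, did not overlap, at 10.20 to 10.62 in WT and 10.67 to 11.21 in En2-/- hippocampus. None of them was called there, and their median probe difference was 0.003. Among astrocyte markers, 1 probe of Slc1a2, a glutamate transporter gene, was lower in En2-/- (-1.28, adjusted p = 0.0409), and the mean over the 9 genes was 13.9 on each WT array and between 13.8 and 13.9 on the En2-/- arrays. The hippocampus's own neuron markers were lower, as the mean over 8 genes, on every En2-/- array (11.50 to 11.71) than on any WT array (11.73 to 12.15), with none called and a median probe difference of -0.55. Microglia markers were likewise lower, as the mean over 6 genes, at 10.40 to 10.50 in En2-/- and 10.81 to 11.18 in WT, with none called and a median of -0.55. The hippocampal neuron and microglia lists moved in the direction of Ntrk3 A_52_P55706 and full-length Ntrk2. Lower means without overlap were not particular to these cell types. Trk signalling genes gave 11.12 to 11.21 in En2-/- and 11.25 to 11.41 in WT. For p75 signalling genes the ranges were 11.28 to 11.31 and 11.40 to 11.57, and for other ligands and receptors 9.31 to 9.59 and 9.63 to 9.76. Genes of precursor processing were higher, at 9.47 to 9.64 in En2-/- and 9.06 to 9.35 in WT. The part of the marker genes in the Ntrk3 and Ntrk2 values was not tested.

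In the cerebellum, no member probe was called between genotypes, by limma (0 of 15 tested, with 0 at an unadjusted p under 0.05) or by the rank product (0 of 15, P under 0.01). Over all 25053 probes tested, limma called 0.579% and the rank product 4.42%. The genotypes did not overlap for 2 member probes, where 13.6% of all probes did not. These were Bdnf A_51_P261991, higher in En2-/- by 0.27 (SE 0.18, adjusted p = 0.807), and Ntrk2 A_51_P516006, higher by 0.24 (SE 0.19, adjusted p = 0.852). The smallest adjusted p among the members was that of Ngfr A_52_P236448 (difference 0.47, SE 0.23, 95% interval -0.06 to 1.01, adjusted p = 0.686), and truncated Ntrk2 A_51_P516012 gave 0.44 (SE 0.23, adjusted p = 0.720). The Ntrk3 probe called in the hippocampus gave -0.31 here (SE 0.24, 95% interval -0.87 to 0.25, adjusted p = 0.844), and the median over the member probes was 0.13, beside -0.00 over all probes. Among Purkinje cell markers, Car8, a carbonic anhydrase-related gene, was lower in En2-/- cerebellum by 1 of its probes (-2.48, adjusted p = 0.0243). It was the only call among the 10 probes of that list tested. The mean over the list's 6 genes lay between 15.2 and 15.7 in WT and between 14.8 and 15.02 in En2-/- cerebellum. Thalamus markers were also lower without overlap (10.49 to 10.71 in WT, 10.08 to 10.44 in En2-/-). Choroid plexus markers (10.04 to 10.37 in WT, 10.59 to 10.82 in En2-/-) and astrocyte markers (14.34 to 14.37, 14.41 to 14.48) were higher without overlap. None of these other lists had a call.

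Whether the genotype effect differed between the regions was tested as an interaction over all 12 arrays. No member passed (0 of 15, beside 0.102% of all probes), and 2 had an unadjusted p under 0.05. These were full-length Ntrk2 A_51_P393454, whose effect was 0.91 higher in the cerebellum than in the hippocampus (SE 0.28, limma adjusted p = 0.312), and Ntrk3 A_52_P55706, with 0.94 (SE 0.36, adjusted p = 0.373). The hippocampal Ntrk3 call is thus not shown to be particular to that region. Truncated Ntrk2 A_51_P516012 gave 0.31 (SE 0.30, adjusted p = 0.684).

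**Figure D5:**
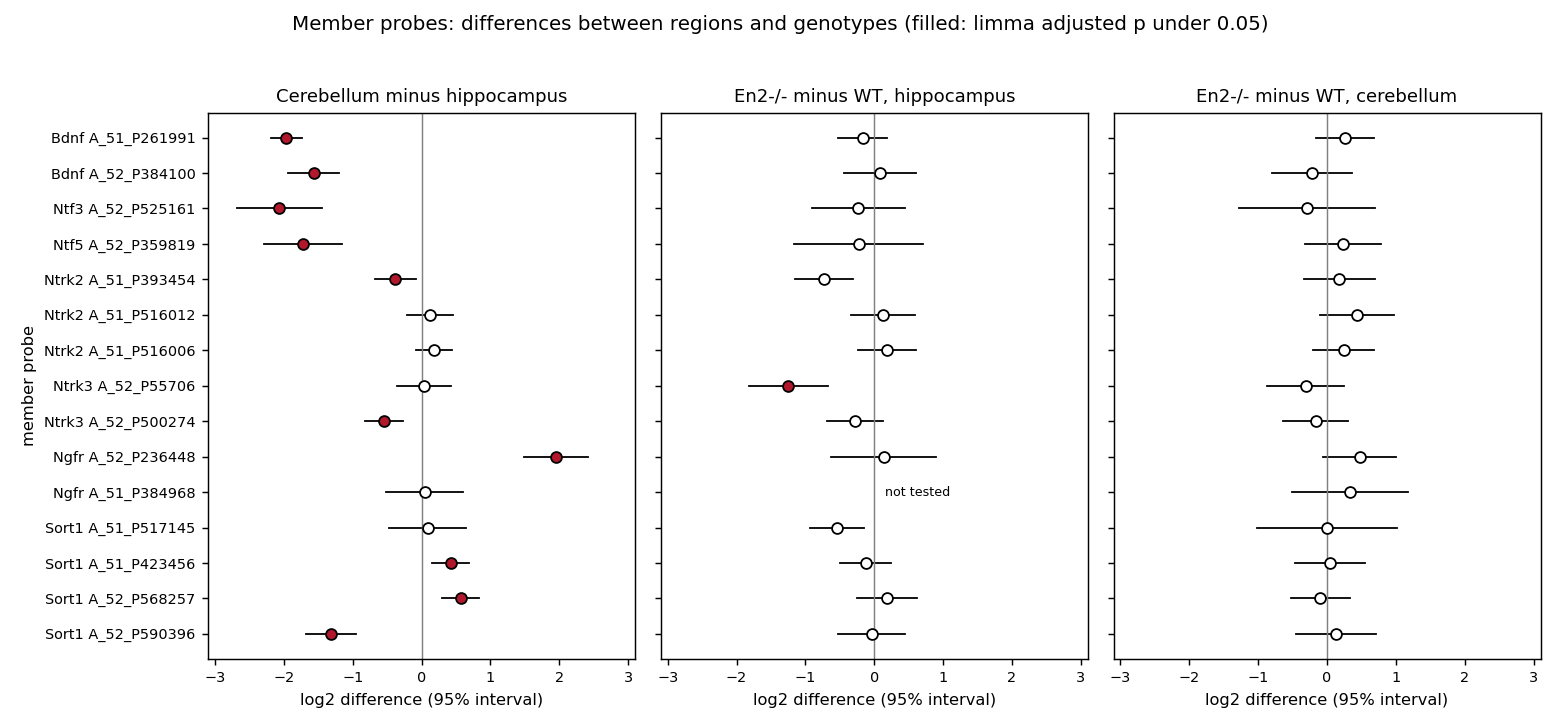
Log2 difference (x axis, points with limma's 95% intervals as lines) of each of the 15 member probes (y axis) between regions and between genotypes in each region. Filled points passed an adjusted p under 0.05; 10 probes are filled between regions, Ntrk3 A_52_P55706 alone in the hippocampus, and none in the cerebellum.

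Other genes of the pathway were described by lists. Of 10 other neurotrophin ligands, receptors and receptor partners, 9 were tested for genotype in each region and none was called, with median probe differences of 0.01 (cerebellum) and -0.25 (hippocampus). Between regions 12 of their 13 probes tested were called (92.3%), 4 higher and 8 lower in the cerebellum, beside 38.6% of all probes.

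Among genes that process neurotrophin precursors, Pcsk7, a proprotein convertase, was lower in En2-/- by 1 of its probes in both tissues (log2 difference -1.93, SE 0.22, adjusted p = 0.0132 in cerebellum, and -2.22, SE 0.25, adjusted p = 0.00748 in hippocampus). Its other probe, A_51_P351285, had a stronger signal and was not called in either tissue. Of this list, 1 probe was called higher and 1 lower in each tissue. These were 9.09% of its 22 probes tested in cerebellum and 9.52% of 21 in hippocampus, beside 0.579% and 2.13% of all probes. The list's median difference was -0.02 in each tissue. Of 39 genes of Trk signalling tested, none was called in the cerebellum and 2 were lower in the En2-/- hippocampus: Sos1, a Ras exchange factor (-1.28, adjusted p = 0.0260), and Rapgef1, a Rap exchange factor (-1.16, adjusted p = 0.0272), each by 1 probe. These are 2 of 83 probes (2.41%), near the 2.13% of all probes called there. The median difference over the 83 probes of that list in the hippocampus was -0.19, beside 0.01 over all probes. Between regions 17 of its 87 probes were higher and 15 lower in the cerebellum (36.8% called), near the 38.6% of all probes.

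Of 14 genes of p75 signalling, none was called for genotype in either region, and the hippocampal median was -0.17. Between regions 10 of their 25 probes were called, 6 higher and 4 lower in the cerebellum, again near the share of all probes. None of 9 genes known to respond to BDNF, such as Arc and Egr1, was called for genotype, with medians of 0.28 in the cerebellum and -0.17 in the hippocampus. Between regions, 12 of the 13 probes of these BDNF-responsive genes were called, all 12 lower in the cerebellum, beside 18.5% of all probes called lower. The list's median was -1.70, the same direction as the ligands. The part of the ligands in that difference was not tested.

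The genes with the most similar profile over the 12 arrays were sought for 1 probe each of 3 members, by Pearson's r of log2 levels. For Bdnf these were St6galnac5, Rgs14 and Pkp2, each with r of 0.995 or 0.996, and for Ntrk3 A_52_P500274 they were Gpr22 (0.985), Zmynd8 (0.978) and Dab1 (0.971). For Ntrk2 A_51_P516006 they were Trim56 (0.936), Ttc4 (0.930) and Mut (0.929). Bdnf A_51_P261991 and Ntrk3 A_52_P500274 separated the regions without overlap and Ntrk2 A_51_P516006 did not. The arrays share slides and fall into 2 regions, and the values carry no test.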

How the data were processed

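The authors deposited, for each of 12 arrays, the scanner software's processed intensity of every spot (background-corrected, linear scale) with probe names, mm9 positions and flags, and a table of log2 values, per their methods filtered with Agi4x44PreProcess and quantile normalized. In that deposited log2 table the tissues had been normalized separately (array medians 9.63 to 9.64 in hippocampus, 9.92 to 9.94 in cerebellum), so it served only as an alternative for genotype results. Here, control spots and outlier flags were removed from the intensity files, log2 values were quantile normalized over the 12 arrays, and spots of a probe were averaged. A probe entered a fit where 1 or more of its groups had all 3 arrays well above background, and was tested with limma 3.58.1 (R 4.3.3), two-sided, Benjamini-Hochberg over all probes tested, threshold 0.05, and with rank products (100 permutations, P under 0.01 in cerebellum and 0.005 in hippocampus). Both tests were first tested on simulated data. At a log2 change of 1, limma recovered 3% of changed probes for genotype in cerebellum, 7% in hippocampus and 57% between regions. At a log2 change of 2 it recovered 51%, 74% and 96%. The rank product recovered 72% in cerebellum and 77% in hippocampus at a log2 change of 1. It also called 841 and 497 unchanged probes there. A probe that missed the threshold is not shown to be unchanged. Differences between 2 probes of a gene were compared with exact two-sided permutation tests (scipy 1.17.1). Alternatives covered normalization, background correction, the dim-probe filter, 1 value per gene, the slide as a block, the arrays in the fit, thresholds, and each array left out. Precision is limited by 3 arrays a group. Nothing in the labels ties the cerebellum and hippocampus arrays of equal number to 1 mouse, and p-values measure the spread between these samples. Members and lists were chosen with earlier results of these data known. Named were every member probe, at most 4 genes of a list and tissue that limma called for genotype, defining markers and the 3 genes of most similar profile. Marker lists without a call for genotype in either region were also those of cerebellar granule cells, neocortex, meninges and vessels, and oligodendrocytes. Some genes of these lists are not reported here.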

Additional observations from a re-analysis of the deposited data

Results flagged for a closer look

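Bdnf A_51_P261991 moved in opposite directions in the regions without overlap between genotypes: each En2-/- cerebellum array was above each WT cerebellum array, and each En2-/- hippocampus array was below each WT hippocampus array. The genotype effect in the cerebellum minus that in the hippocampus was 0.43 (SE 0.20, limma adjusted p = 0.449), and within the 3 slides it was 0.43, 0.43 and 0.44. The test of the difference did not pass, and the other Bdnf probe gave -0.31 (SE 0.34, adjusted p = 0.731).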

How the results depend on the processing

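The direction and call of most member results held: of 1386 values of a member probe under an alternative, 28 lost their call and 5 gained one, and no called value changed sign. A sign change occurred for 64 values that were called under neither setting. Cerebellum arrays left out singly gave 53 to 110 probes called for genotype by limma (145 with all arrays, fewest without En2-/- replicate 3) and 0 member probes. Hippocampus arrays left out singly gave 81 to 356 probes called there (507 with all arrays, fewest without WT replicate 1) and 0 member probes (1 with all arrays). For the regions the ranges were 8354 to 10430 probes and 8 to 10 members, 5303 to 7254 and 8 to 9 in WT, 4224 to 5591 and 6 to 7 in En2-/-, and for the interaction 10 probes (without WT hippocampus replicate 1) to 50 (without En2-/- hippocampus replicate 1), beside 26 with all arrays, and 0 members. The rank product gave 828 to 1369 probes in the cerebellum with 0 members, and 718 to 922 in the hippocampus with 0 to 1 member.

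Other settings that moved a count by over 1.5 times were these. In the cerebellum limma called 232 probes with all 12 arrays in 1 model, 58 without a filter on dim probes, 93 with probes well above background on every array and 79 with the mean of a gene's probes. In the hippocampus it called 282 with all 12 arrays, 163 without the filter, 200 with 1 probe per gene and 189 with the mean of a gene's probes. No hippocampal member was called (0 in place of 1) with quantiles within the tissue, without the filter, with 1 probe per gene or with the mean of a gene's probes. Between regions 6 members were called with 1 probe per gene and 4 with the mean of a gene's probes (5 in WT), both of 7 genes. Over all genes, 6569 were called with 1 probe per gene, and 6353 of the 15896 tested by the mean. The number of genes tested with 1 probe per gene and the share of all genes called in WT are not given here. The counts of 6 members and of 5 in WT therefore cannot be set against all genes. The interaction count was 15 with the authors' log2 values and 10 with probes well above background on every array. By the rank product, a percentage of false prediction under 0.05 left 245 probes in the cerebellum and 287 in the hippocampus, with 0 members, and 1 probe per gene gave 619 with 0 members. The cause of these shifts was not tested.

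Replicate number is the slide. Deviations from the group means correlated between same-numbered arrays from -0.23 to 0.23 over 24903 probes. Between arrays of different number the range was -0.30 to 0.34. With 3 arrays a group, this check cannot decide whether equal numbers pair the arrays. With the replicate block, limma called 134 probes in the hippocampus and 0 members, and 15 in the interaction (7 with the replicate block by genotype); the block ended no other member call than those of Ntrk3 A_52_P55706 in the hippocampus and Ntrk2 A_51_P393454 between regions, and the block by genotype also those of Sort1 A_51_P423456 between regions (adjusted p = 0.0532) and Ntrk3 A_52_P500274 in WT (adjusted p = 0.05425). Region contrasts from the authors' values were not run. Dim signals limit Ngfr A_51_P384968 and Ntf5.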
